A study of Mus musculus with 6 samples.

Results

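The genes described here make, trim or remodel heparan sulfate, and were compared between immortalized mouse proximal tubular cells with and without a knockdown of Glis2. They were chosen by gene symbol: the endosulfatases Sulf1 and Sulf2, the chain polymerases Ext1 and Ext2, the N-deacetylase/N-sulfotransferases Ndst1 and Ndst2, the epimerase Glce, and the O-sulfotransferases Hs2st1, Hs3st1 and Hs6st1. Of these 10 genes, 9 had probes whose annotated symbol matched, which gave 21 of the 45281 probes on the array, or 9 of 19057 genes; Ndst1 was not analysed here. The set was assembled with results of this comparison already known, Sulf2 being among the genes with the largest rise, so the members' values and calls are a description of these arrays and were not tested as a set.

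Both groups are immortalized proximal tubular cells of strain background C56BL/6, as the labels spell it, infected with lentivirus and harvested 7 days later. The control group of 3 arrays carried a short hairpin RNA against GFP, and the Glis2KD group of 3 arrays carried one against Glis2, a zinc finger transcription factor of the Gli-similar family known from inherited cystic kidney disease. The study looked for genes whose expression changes when Glis2 is lowered. Nothing in the labels ties the 3 samples of a group to separate cultures, so p-values reflect how much these particular arrays varied, and that variation may be technical. Loss of Glis2 and any other action of the hairpin cannot be told apart, since no second Glis2 hairpin was among the samples.

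Heparan sulfate is a long sulfated sugar chain attached to core proteins of the cell surface and matrix. It is polymerised by Ext1 and Ext2 in the Golgi, then modified in turn by N-deacetylation and N-sulfation, epimerisation, and 2-O-, 6-O- and 3-O-sulfation, and the resulting sulfation pattern sets which growth factors and morphogens the chain binds. The endosulfatases Sulf1 and Sulf2 act later, outside the cell, where they remove 6-O-sulfate groups and thereby release or retain ligands of the FGF, Wnt, BMP and other families. In the kidney, heparan sulfate is known as a component of basement membranes and as a co-receptor for growth factors on tubular cells.

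For Sulf2 and Hs3st1, the members that differed most between the groups, the 250 bases before the annotated start are shown here, so that the letters upstream of the members described first are at hand. They are from RefSeq on build GRCm38.p6, whose table held windows for 7 of the 10 members. Capitals mark the GC box GGGCGG and the TATA box TATAAA, searched on both strands.
Sulf2, chr2:166155684-166155933, minus strand: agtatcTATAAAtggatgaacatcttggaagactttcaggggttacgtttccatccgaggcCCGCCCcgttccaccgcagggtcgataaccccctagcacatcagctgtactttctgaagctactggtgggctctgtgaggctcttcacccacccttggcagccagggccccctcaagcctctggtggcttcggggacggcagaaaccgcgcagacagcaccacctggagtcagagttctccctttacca
Hs3st1, chr5:39644632-39644881, minus strand: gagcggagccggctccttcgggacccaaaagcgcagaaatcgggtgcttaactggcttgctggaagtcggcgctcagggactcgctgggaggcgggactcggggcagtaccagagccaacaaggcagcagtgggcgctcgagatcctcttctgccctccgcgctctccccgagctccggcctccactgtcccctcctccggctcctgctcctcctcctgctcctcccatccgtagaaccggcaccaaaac
The window before the upstream Sulf2 start held 1 GC box, 189 bases before the start, and 1 TATA box, 244 bases before it, whereas the Hs3st1 window and the window before a second Sulf2 start held 0 of either. Of 32851 mouse windows of this length, 32.7% held a GC box and 12.4% a TATA box. The Gli consensus GACCACCCA, searched because Glis proteins are relatives of Gli, was found in 0 of the 8 member windows and in 0.225% of all windows. These matches are a description of letters, not of binding sites.

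Glis2 itself was lower in the knockdown on both of its probes. The brighter one gave 278, 234 and 230 in the control arrays and 169, 161 and 176 in the knockdown arrays, a log2 fold change of -0.55 ± 0.089 (SE, n = 3 arrays each, limma's adjusted p = 7.16e-05), and the other gave -0.36. The mean of the brighter probe was 31.8% lower with background included, where the study states a knockdown efficiency over 80% without naming how it was measured. Values throughout are linear array intensities that still contain background; a limit of 137, derived from the most frequent intensity of 113, marks where signal stands above it, and from 40.75% to 40.79% of the probes of each array lay above it. Arrays correlated at r = 0.995 within groups and at 0.980 to 0.982 between groups, taken across the 45281 probes, which are not independent. Precision is limited by the 3 arrays of each group.

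The proximal tubular label was only partly borne out by marker genes. Of 14 measured proximal tubule markers, Aqp1, Mme, Pax8 and Dab2 were above the limit on all 3 control arrays, whereas the defining transport genes Slc34a1 and Lrp2 were under it on all 6 arrays. Aqp1, the water channel, went from 10539, 9162 and 9580 to 325, 289 and 480, and Mme from 1011, 832 and 723 to values under the limit; the summed intensity of that list was 15193 to 17073 in control and 4684 to 5063 in knockdown arrays. Of 6 general epithelial markers 5 were above the limit on every array, and their sum went from 60144–62515 to 79727–82043. Within that list the keratins Krt8 and Krt18 were higher, by 0.57 and 0.40 on the log2 scale, whereas the junction genes Cdh1 and Cldn1 were lower, at -0.38 and -1.16. Of 9 fibroblast and pericyte markers, Dcn was above the limit on all 3 control arrays and Acta2 on all 3 knockdown arrays. Of the 9, 5 were under the limit on all 6 arrays, Pdgfra and Postn among them. That list's sum went from 1235–1247 to 2107–2420. Acta2 was higher, from a mean of 145 to 1302 (log2 fold change 3.17), whereas Dcn was lower, from 275 to 139 (-0.98). Col1a2, whose mean was under the limit, was called higher by 0.26. None of 6 endothelial markers was above the limit on all 3 arrays of a group, and of 6 leukocyte markers Csf1r alone was, higher in the knockdown by 0.44. Of 3 measured podocyte markers, Podxl and Synpo were above the limit on all 6 arrays and higher, by 0.39 and 0.42, and of 6 markers of more distal segments Slc12a3 was above it on all 6 and not called. The part of these marker shifts in the results below was not tested, and in such bulk samples fewer cells of a type and less RNA per cell cannot be told apart.

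Sulf2 was the member with the largest difference, and its probes disagreed. On probe ILMN_1239293 the control arrays read 331, 325 and 291 and the knockdown arrays 4215, 3813 and 3878. Every knockdown array was far above every control array, and the group means of 316 ± 21.5 and 3969 ± 216 (SD, n = 3) corresponded to a log2 fold change of 3.65 ± 0.085 (SE), or 12.6-fold, ranking 4 of 19057 genes from the highest. With the array's most frequent value subtracted as background, the same probe gave a 19.1-fold difference.

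The other Sulf2 probe, ILMN_1234624, is annotated to the same RefSeq transcript accession but moved slightly the opposite way. It read 225, 188 and 200 in control and 172, 181 and 174 in knockdown arrays, so the knockdown arrays were the lower ones without overlap, and its log2 fold change of -0.22 ± 0.086 (SE) did not pass limma's threshold. Both probes were above the background limit on all 6 arrays. The large Sulf2 difference therefore rests on 1 of 2 probes; what each probe's sequence matches was not examined here.

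Sulf1, the paralog with the same enzymatic activity, stayed at background on all 5 of its probes. Its probes read between 97.4 and 147 over the 6 arrays, and only 2 of those 30 readings exceeded the limit, one on a control array of ILMN_1244984 and one on a knockdown array of ILMN_2501191. Their log2 fold changes ran from -0.01 to 0.17, the groups overlapped on every probe, and none was called. At this signal a fall or a small rise in Sulf1 was not detectable.

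**Figure D1:**
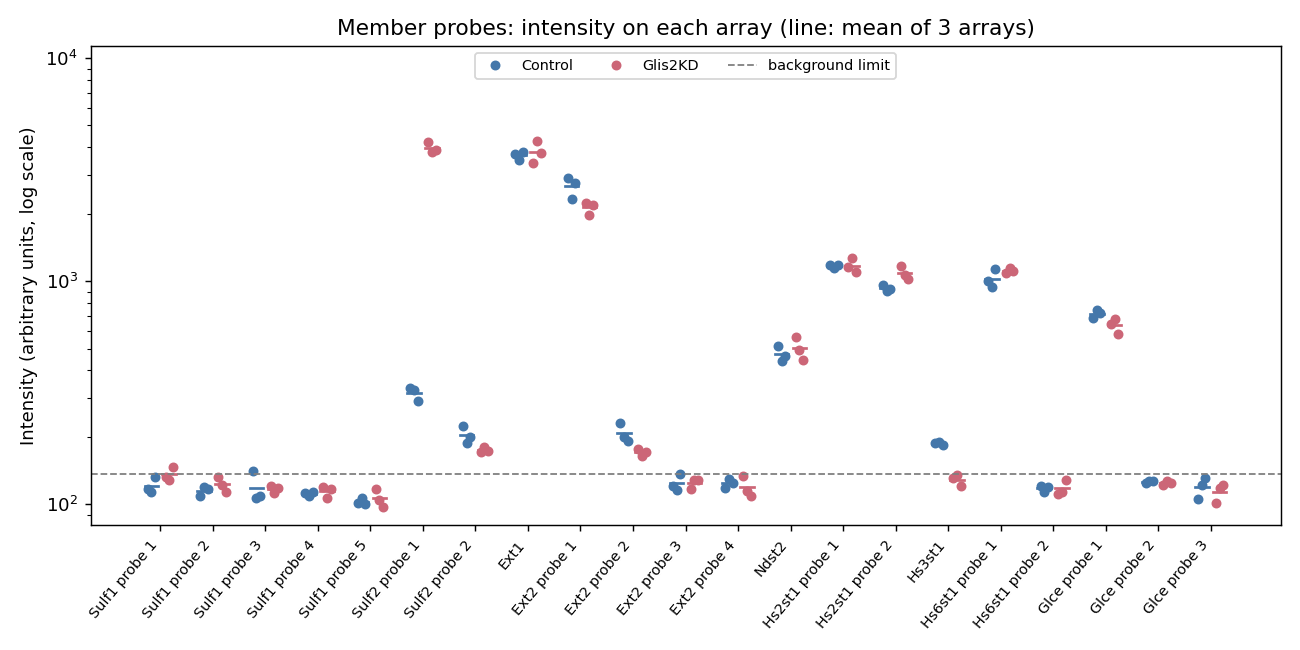
Intensity of the 21 probes of the 9 measured genes (log axis, arbitrary units), with 1 point for each of the 3 control and 3 Glis2KD arrays, a short line at each group's mean and a dashed line at the background limit of 137. Probe 1 of Sulf2 separates the groups by about 12.6-fold, the group means of the 5 Sulf1 probes lie under the limit, and Hs3st1 falls from above the limit to below it.

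Of the 2 polymerase genes, which together form the enzyme that extends the chain, Ext1 showed no separation. Its probe read 3736, 3516 and 3785 in control and 3383, 4277 and 3769 in knockdown arrays, with a log2 fold change of 0.04 ± 0.091 (SE). One knockdown array lay below and one above all 3 control arrays, so the groups overlapped fully.

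Ext2 was lower on the 2 of its 4 probes that were above background. Probe ILMN_2895364 read 2911, 2342 and 2763 in control and 2243, 1992 and 2209 in knockdown arrays, a log2 fold change of -0.31 ± 0.092 (SE). Probe ILMN_2775514 read 231, 201 and 192 against 178, 165 and 172, a log2 fold change of -0.27 ± 0.087 (SE). On both, every knockdown array was below every control array. The first probe was no longer called when control array 1, control array 3 or knockdown array 2 was left out. The second was not called when control array 1 or 2 or knockdown array 2 or 3 was left out. Neither was called with background subtracted or with normexp correction, nor was the second by eBayes with trend. The other 2 Ext2 probes, ILMN_1254650 and ILMN_1222215, were under the limit on all 6 arrays.

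Ndst2, which removes acetyl groups from the chain and replaces them with sulfate, overlapped between the groups. It read 513, 441 and 463 in control and 564, 494 and 445 in knockdown arrays, with a log2 fold change of 0.08 ± 0.094 (SE). Glce, the epimerase that turns glucuronic into iduronic acid, read 688, 747 and 718 against 646, 681 and 583 on ILMN_2433946. All knockdown arrays were below the controls there, but the log2 fold change of -0.18 ± 0.085 (SE) did not pass limma's threshold, and its other 2 probes stayed under the limit on all 6 arrays.

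Hs2st1, the 2-O-sulfotransferase, gave 2 readings that differed in outcome although both probes are annotated to the same transcript accession. ILMN_2853601 read 1187, 1151 and 1190 in control and 1157, 1269 and 1103 in knockdown arrays, with fully overlapping groups and a log2 fold change of -0.0015. ILMN_2777202 read 962, 903 and 925 against 1168, 1073 and 1029, with every knockdown array above every control array. Its log2 fold change of 0.23 ± 0.083 (SE) was not called by limma, and was called with an offset of 50 added before the logarithm.

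Hs6st1, which adds the 6-O-sulfate that the endosulfatases remove, was not called on either probe. ILMN_3158500 read 1003, 947 and 1140 in control and 1093, 1143 and 1114 in knockdown arrays, a log2 fold change of 0.12 ± 0.086 (SE) with overlapping groups, and ILMN_3079255 was under the limit on all 6 arrays.

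Hs3st1, the 3-O-sulfotransferase that makes the antithrombin-binding form of the chain, was lower in the knockdown. It read 188, 191 and 184 in control and 131, 135 and 122 in knockdown arrays. All 3 control arrays were above the background limit and all 3 knockdown arrays below it, so the gene was at least 1.37-fold lower; the measured log2 fold change was -0.54 ± 0.082 (SE). The gene had 1 probe.

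**Figure D2:**
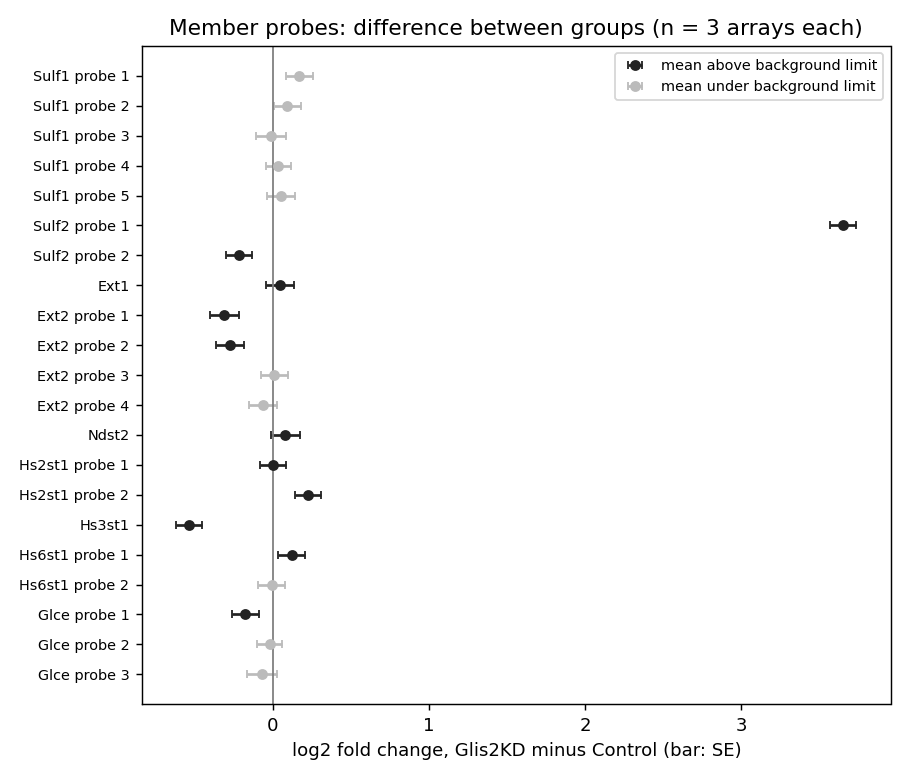
Log2 fold change of each of the 21 probes, Glis2KD minus control, with bars for the SE of the fit (3 arrays per group); black points had a mean above the background limit and grey points did not. Probe 1 of Sulf2 lies at 3.65, Hs3st1 at -0.54 and the upper 2 Ext2 probes at -0.31 and -0.27, and the 10 grey points lie between -0.07 and 0.17.

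By limma 4 of the 21 member probes were called, 1 higher and 3 lower, where 15.6% of all 45281 probes were called, 7.84% higher and 7.76% lower; 11 member probes had a mean above the background limit, and 37.6% of all such probes were called. The groups did not overlap on 7 of the 21, against 26.3% of all probes and 48.5% of those above the limit. By the brightest probe of each gene, 1 of 9 genes was higher, 2 were lower and 6 were not called, with a median log2 fold change of 0.04 against 0.004 over all 19057 genes, of which 22.0% were called, 10.9% higher and 11.1% lower; among genes above the limit 42.3% were called, 20.8% higher and 21.5% lower, and in 52.3% the groups did not overlap. Nothing is read from these shares, since the members were chosen with this comparison known. The median log2 fold change of up to 50 neighbouring genes on the chromosome ran from -0.08 to 0.17 over the members.

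The genes whose profile over the 6 arrays was most like that of the bright Sulf2 probe were Nectin3, Cavin2, Gstk1 and Prl2c3. Candidates were 9363 genes whose brightest probe had a mean above the limit over the 6 arrays, clone identifiers left out. Ranking was by the root mean square difference from Sulf2 after each gene was centred on its own mean. This difference was 0.078 for Cavin2 and 0.192 for Prl2c3 on the log2 scale. The 4 genes named went from 113 ± 2.16 to 1418 ± 74.1, from 269 ± 7.29 to 3327 ± 163, from 111 ± 1.74 to 1390 ± 88.9 and from 141 ± 6.21 to 1403 ± 54.4 (SD, n = 3). Nectin3, an adhesion molecule, and Gstk1, a glutathione transferase, were under the limit on all 3 control arrays. They were thus at least 10.3-fold and at least 10.1-fold higher, and became candidates only through their knockdown arrays. Their place in this order rests on control values at background. Prl2c3 read 142, 134 and 146 in control arrays, with 2 above the limit of 137, so its place rests on control values near background. With 2 groups of 3 arrays this likeness is mostly a shared size of difference.

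The wider machinery was read from 6 lists chosen by function, with 62 genes of which 59 were measured. Of these, 4 were higher and 13 lower by limma and 42 were not called, or 28.8% called where the background over all genes was 22.0%; 37 had a brightest probe above the limit, and 45.9% of these were called, where 42.3% of all genes above the limit were. The lists' median log2 fold change was -0.05. With background subtracted, 3 were higher and 8 lower. List by list, the share called among genes above the limit was 50% of 12 core proteins and 14.3% of 7 linker genes. It was 33.3% of 3 other polymerases and sulfotransferases and 60% of 5 genes for sulfate donor and sugar precursors. For degradation it was 50% of 6 genes, and for other sulfatases and activators 75% of 4. With so few genes nothing is read from these shares.

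Of 14 core proteins that carry the chains, 2 were higher, 4 lower and 8 not called. That was 42.9% called, where 22.0% of all genes were. Of the 12 above the limit 50% were called, where 42.3% of all genes above it were, and nothing is read from these shares. Sdc3, a syndecan known mainly from nerve cells, read 240, 293 and 260 in control and 1156, 1139 and 1177 in knockdown arrays, a log2 fold change of 2.13 ± 0.087 (SE, limma's adjusted p = 2.67e-14). Sdc1, the main epithelial syndecan, went the other way, from 767, 697 and 786 to 421, 403 and 391 (-0.89 ± 0.083, adjusted p = 3.43e-08). In neither gene did the groups overlap. A second Sdc1 probe above the limit, ILMN_2756943, gave -0.28 with overlapping groups and was not called (adjusted p = 0.0523).

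Sdc2 fell from 214, 216 and 222 to 137, 115 and 106, where 2 of the 3 knockdown arrays were under the background limit (log2 fold change -0.88). Sdc4 read 1973, 2259 and 2226 against 1703, 1898 and 1770, a log2 fold change of -0.26 with limma's adjusted p = 0.0374 that was no longer called when control array 2 or 3 or knockdown array 1 or 3 was left out, or with background subtracted. All 4 syndecans, which are transmembrane carriers, were called in the main fit, 1 upward and 3 downward. Of all genes above the limit 42.3% were called, and no weight is put on a count of 4.

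Among the glypicans, which are held at the membrane by a lipid anchor, Gpc1 read 14945, 11976 and 11988 in control and 6406, 6987 and 6538 in knockdown arrays (log2 fold change -0.96 ± 0.093, limma's adjusted p = 5.63e-08). Gpc2 rose from 154, 143 and 144 to 280, 263 and 347 (1.01 ± 0.096, adjusted p = 4.51e-08), starting just above the background limit. The secreted basement membrane carriers Agrn (agrin) and Col18a1 overlapped between groups, at 19867 ± 813 against 20210 ± 1570 and at 15863 ± 876 against 16512 ± 879 (SD, n = 3), and were not called on these probes; another Col18a1 probe, ILMN_2937542, was called higher by 0.49 (adjusted p = 0.000122).

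**Figure D3:**
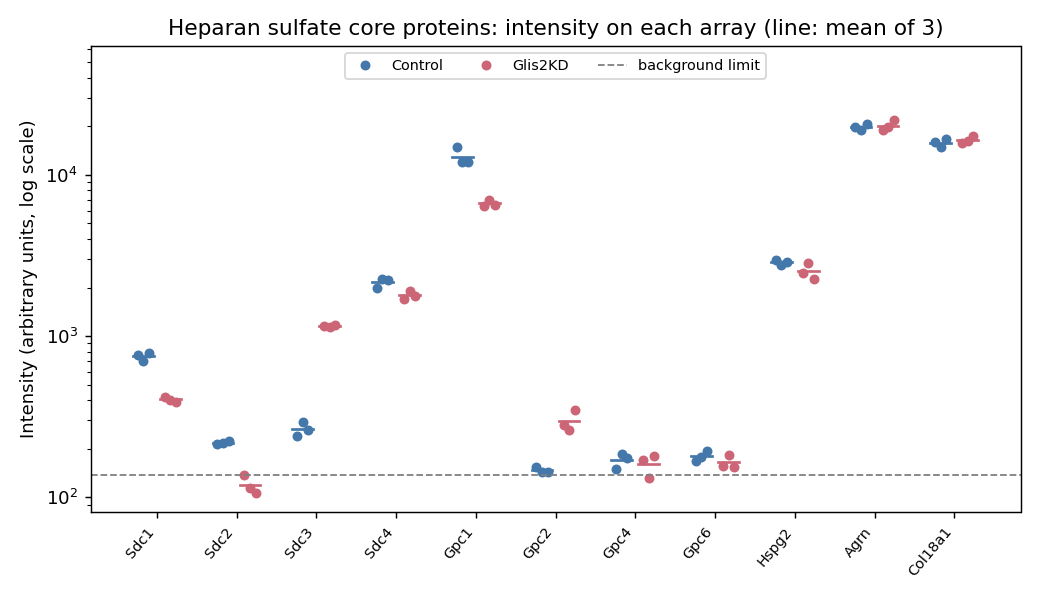
Intensity of 11 heparan sulfate core proteins on each of the 6 arrays (log axis, arbitrary units), with the mean of each group as a line and the background limit dashed. Sdc3 and Gpc2 are higher in all Glis2KD arrays, Sdc1, Sdc2, Sdc4 and Gpc1 are lower in all of them, and Agrn and Col18a1 overlap.

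Of 7 genes that build the linker between core protein and chain, 0 were higher, 1 was lower and 6 were not called. That was 14.3% called, where 22.0% of all genes were. All 7 were above the limit, where 42.3% of all such genes were called, and nothing is read from so few genes. The called gene was Pxylp1, the phosphatase that removes the phosphate from the linker xylose. It read 4576, 3751 and 4026 against 2191, 2138 and 1859 (log2 fold change -0.996 ± 0.093, limma's adjusted p = 2.96e-08). The linker list held 3 called genes when control array 2 was left out and 2 when knockdown array 3 was, or with an offset of 50. The galactosyltransferases B3galt6 and B4galt7 had 0.21 and 0.06. A further probe of the glucuronosyltransferase B3gat3, ILMN_1221140, was called higher by 0.28 (adjusted p = 0.0293), while its brightest probe, at 0.18, was not. Among 12 other polymerases and sulfotransferases, Extl2 was the 1 called gene, at -0.39 ± 0.090 (adjusted p = 0.00279), and it was not called with background subtracted (adjusted p = 0.107), while 2 genes of that list were called when knockdown array 3 was left out. Extl3, an initiator of the chain, had -0.10, Hs6st3 had 0.25 and neither passed; 9 of the 12 had brightest probes under the limit.

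Of the genes listed for supply of the sulfate donor PAPS and of sugar precursors, Papss1 had the largest difference. Papss1, which synthesises PAPS, read 6599, 5529 and 5201 in control and 3357, 3666 and 3704 in knockdown arrays (log2 fold change -0.69 ± 0.093, limma's adjusted p = 6.97e-06), and a second probe gave -0.43 (adjusted p = 0.000822). In all, 3 of 9 genes of this list were lower and 0 higher, where 22.0% of all genes were called, 11.1% lower. Of the 5 above the limit 60% were called, where 42.3% of all genes above it were, and nothing is read from so few genes. The others called were Ugp2 at -0.30 and Bpnt2 at -0.24. Both lost their calls with background subtracted and with normexp correction, leaving 1 called gene. The count was also 1 when control array 1 or 2 or knockdown array 2 or 3 was left out. The Golgi PAPS transporters Slc35b2 and Slc35b3 had 0.02 and 0.18 and were not called, though a further Slc35b3 probe, ILMN_2948971, was called higher by 0.37 (adjusted p = 0.00171).

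Of 9 measured genes for breakdown of the chain, 1 was higher, 2 were lower and 6 were not called. That was 33.3% called, where 22.0% of all genes were. Of the 6 above the limit 50% were called, where 42.3% of all genes above it were, and nothing is read from so few genes. Naglu, the N-acetylglucosaminidase, read 1357, 1277 and 1288 against 563, 590 and 729 (log2 fold change -1.07 ± 0.094, limma's adjusted p = 1.27e-08), and Ids, iduronate-2-sulfatase, 3437, 4171 and 3314 against 2469, 2439 and 2518 (-0.55 ± 0.091, adjusted p = 9.03e-05). Ids was not called with background subtracted (adjusted p = 0.0522). Gusb, beta-glucuronidase, rose from 700, 596 and 542 to 1119, 1105 and 1000 (0.82 ± 0.094, adjusted p = 7.87e-07), and its other 3 probes above the limit were also called higher; its 50 neighbouring genes had a median of 0.22. Hgsnat and Idua, at -0.03 and 0.14, were not called. Hpse, heparanase, which cuts the chain outside the cell, was under the limit on all 3 control arrays and on 2 of 3 knockdown arrays. A fall or a small rise in Hpse was thus not detectable, and Hpse was looked at after its value was seen.

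Of 8 other sulfatases and sulfatase activators 1 was higher and 2 were lower. That was 37.5% called, where 22.0% of all genes were. Of the 4 above the limit 75% were called, where 42.3% of all genes above it were, and nothing is read from so few genes. Arsa, arylsulfatase A, read 734, 646 and 637 against 394, 412 and 436 (log2 fold change -0.70 ± 0.086, limma's adjusted p = 1.91e-06), and Galns, a keratan and chondroitin sulfatase, had -0.44, which a second probe above the limit did not share (-0.09, not called). Sumf2, a paralog of the formylglycine-generating enzyme that activates sulfatases, read 662, 711 and 647 against 765, 802 and 840 (0.25, adjusted p = 0.0383). Its other 2 probes above the limit had -0.04 and 0.09 and were not called, and its call was lost with background subtracted or when control array 1 or 3 or knockdown array 2 or 3 was left out. Arsb had -0.19 and was not called, and the mean of Arsi was under the limit.

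**Figure D4:**
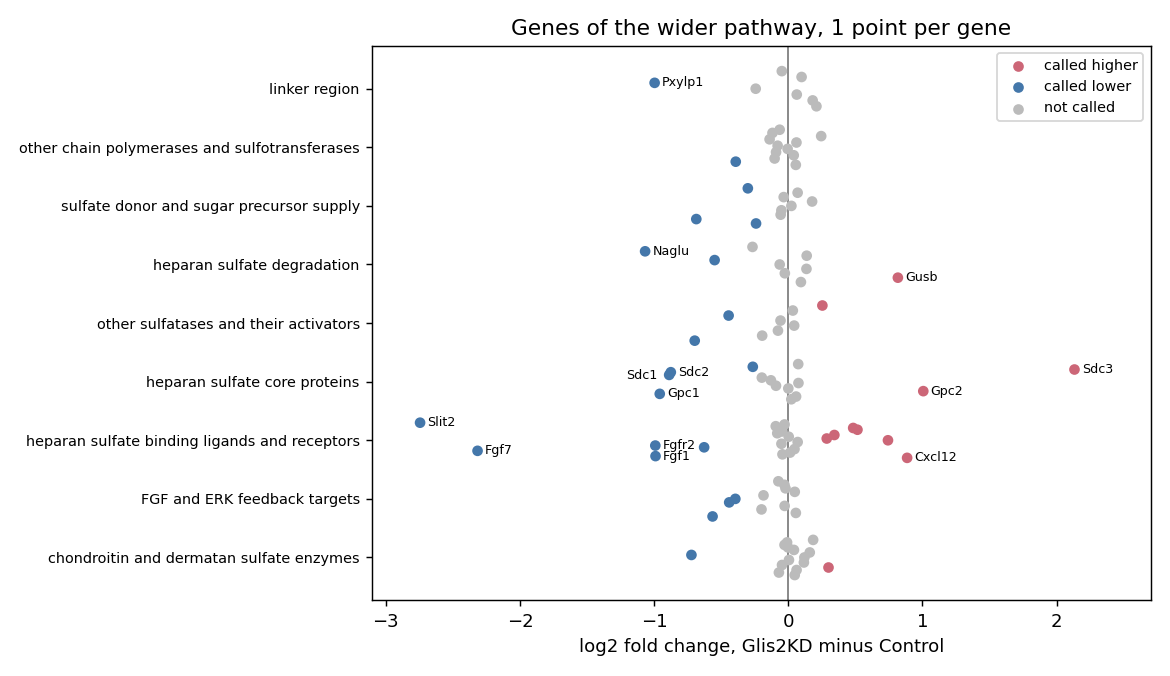
Log2 fold change, Glis2KD minus control, of every measured gene of the 9 lists, 1 point per gene by its brightest probe; colours mark genes called by limma and grey those not called, and the vertical spread within a list only separates points. Sdc3 lies farthest to the right at 2.13 and Slit2 farthest to the left at -2.74.

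Among ligands and receptors that bind heparan sulfate, Slit2 and Fgf7 showed the largest falls of all the listed genes. Of 21 such genes 6 were higher, 5 lower and 10 not called, where 22.0% of all genes and 42.3% of those above the limit were called; the list was chosen with results of these arrays known. Slit2, a guidance ligand, read 3765, 3581 and 3493 in control and 586, 534 and 500 in knockdown arrays (log2 fold change -2.74 ± 0.085, limma's adjusted p = 2.16e-16); 3 of its other 4 probes above the limit were also called lower. Fgf7, the keratinocyte growth factor, read 1608, 1786 and 1306 against 338, 281 and 321 (-2.32 ± 0.10, adjusted p = 1.26e-13).

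Fgfr2, which includes the receptor form for Fgf7, fell from 2632, 2597 and 2442 to 1302, 1193 and 1368 (log2 fold change -0.99 ± 0.084, limma's adjusted p = 7.03e-09), and Fgf1 from 1233, 1124 and 1204 to 667, 511 and 625 (-0.99 ± 0.095, adjusted p = 4.89e-08). Fgf1 had 1 and Fgfr2 had 2 further probes called lower. Fgfrl1, an FGF receptor without a kinase domain, read 448, 431 and 408 against 687, 735 and 733 (0.74 ± 0.082), and the chemokine Cxcl12 127, 141 and 138 against 246, 299 and 213 (0.89 ± 0.10), with 1 control array under the background limit. The remaining 5 called genes, named after their values were seen, were Fgfr1, at least 1.37-fold lower, Grem1, at least 1.08-fold higher, and Pdgfa, Pdgfb and Mdk, higher by 0.52, 0.48 and 0.34. With background subtracted Pdgfa, Pdgfb and Mdk were no longer called (limma's adjusted p = 0.0994, 0.0714 and 0.114), nor was Mdk by the mean of all its probes (adjusted p = 0.682). Grem1 and Mdk lost their calls when single arrays were left out: for Grem1 these were control array 2 and knockdown arrays 2 and 3, and for Mdk control array 3 and knockdown array 1. The hepatocyte growth factor receptor Met had -0.08 and was not called, and the mean of the Slit receptor Robo1 was under the limit.

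Of 11 feedback targets of FGF and ERK signalling, 0 were higher, 3 lower and 8 not called. That was 27.3% called, where 22.0% of all genes were. Of the 9 above the limit, 33.3% were called, where 42.3% of all genes above it were. Dusp4, a MAP kinase phosphatase, read 3911, 3740 and 3884 against 2763, 2610 and 2437 (log2 fold change -0.56 ± 0.083, limma's adjusted p = 1.95e-05), and the transcription factor Etv5 441, 427 and 530 against 390, 321 and 319 (-0.44 ± 0.098, adjusted p = 0.00223). Il17rd had -0.39 with overlapping groups and was not called when control array 1 or 2 or knockdown array 2 was left out. With background subtracted 1 gene of the list was called. Dusp6 and Etv4, the brightest of those not called, overlapped between groups at 5867 ± 651 against 6096 ± 614 and at 1561 ± 250 against 1520 ± 37.7 (SD, n = 3). The other 2 Dusp6 probes, ILMN_1248537 and ILMN_2701321, disagreed with the brightest and were called higher, by 0.56 and 0.29, while 3 further Dusp4 probes were called lower.

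**Figure D5:**
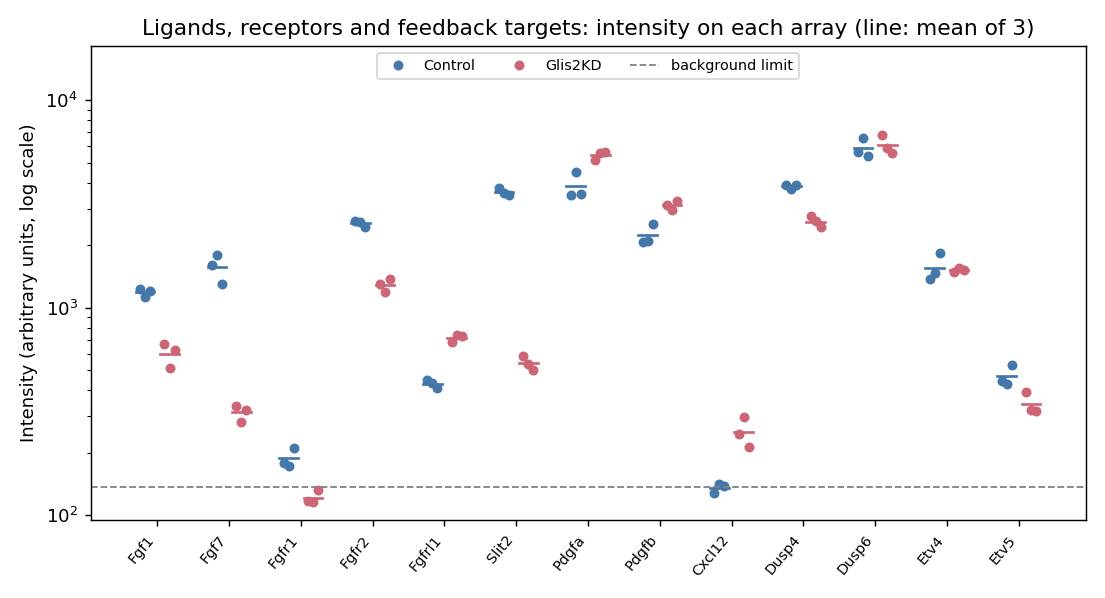
Intensity of 13 heparan sulfate binding ligands, receptors and feedback targets on each of the 6 arrays (log axis, arbitrary units), with group means as lines and the background limit dashed. Slit2, Fgf7, Fgf1, Fgfr1, Fgfr2, Dusp4 and Etv5 are lower in all Glis2KD arrays, Fgfrl1, Pdgfa, Pdgfb and Cxcl12 are higher in all of them, and the brightest probes of Dusp6 and Etv4 overlap.

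As a comparison, of 15 measured enzymes of the related chondroitin and dermatan sulfate chains 1 was higher and 1 lower. That was 13.3% called, where 22.0% of all genes were. Only 6 of the 15 had a brightest probe above the limit. Of these 33.3% were called, where 42.3% of all genes above the limit were. Chst7 read 669, 609 and 559 against 373, 363 and 375 (log2 fold change -0.72 ± 0.085, limma's adjusted p = 1.12e-06). Chst12 had 0.30 and was not called with background subtracted or when control array 2 or knockdown array 1 or 3 was left out. Dsel and Chpf had -0.0091 and 0.05 and were not called. Whether the heparan and chondroitin lists differ was not tested.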

How the data were processed

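RNA of 6 samples was hybridised with Cy3 label to an Illumina mouse bead array, per the labels. The authors deposited 1 linear intensity per probe and array; the scanner software and normalization are not stated in the labels. The deposited arrays already shared 1 distribution, with background left in. Values were floored at 16, which altered 0 values, and log2 transformed. Knockdown was compared with control over 45281 probes with limma 3.58.1 in R 4.3.3 (lmFit, eBayes) and Benjamini-Hochberg adjustment over all probes at 0.05. Symbols came from the platform annotation: 34885 probes had 1, 18 several and 10378 none. List genes were read from the probe with the highest mean. The background limit was set 3 SD above the commonest intensity, with the SD taken from values below it; "at least" folds put the limit in place of arrays under it. Same-numbered replicates were checked for pairing: deviations correlated at -0.09 to -0.04, so no block was used. The fit was tested on simulated data. Members and lists were chosen with earlier results of these data known. Named genes were all member probes, up to 6 called genes per list by smallest p and the 2 brightest not called.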

Additional observations from a re-analysis of the deposited data

How the results depend on the processing

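Over all probes, 7065 were called and 3443 with background subtracted, a setting under which 36.5% of probes became constant at the floor; the other alternatives (replicate block, quantile normalization, median centring, normexp, offset, floor 32, both filters on dim probes, eBayes with trend or robust) stayed within 1.5 times. Leaving out each array in turn gave 6022 to 6521. The 6 machinery lists had 17 called genes, 11 with background subtracted, and 14 to 16 when each array was left out. With the replicate number as a block, 6790 probes and 15 list genes were called. Deviations of same-numbered arrays correlated at -0.09, -0.04 and -0.05. These values gave no sign of pairing. They cannot show whether same-numbered samples were handled together, which the labels do not say. Of 33 called genes in all lists, 20 kept their call in every alternative and 0 changed sign. The Sulf2 probe ILMN_1239293 stayed between 3.46 and 4.25 and was called in all 18 alternatives, as was Hs3st1, whose size is only bounded because its knockdown arrays lie at background. Relative to 50 neighbouring genes, an alternative added after seeing the data, Sulf2 had 3.71. Low signal limits Sulf1 and the other probes under the background limit.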
